A study of Rattus norvegicus with 8 samples.

Results

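The genes of glycolysis, lactate exchange and pyruvate control were followed in rat lung after monocrotaline. The set held 35 genes named by symbol, from glucose import to the mitochondrial pyruvate carrier, and a gene belonged to it when a row of the deposited gene table carried its symbol. Of the 32623 rows of that table, 34 members had one, and all 34 passed the filter on low counts and were tested. Gapdh was the member without a row of that name. Whole-lung RNA was sequenced from 4 libraries of rats (Rattus norvegicus) given monocrotaline, labelled MCT, and from 4 control libraries, labelled Ctrl, with oligo(dT) beads used in library preparation. Monocrotaline, an alkaloid of Crotalaria plants, damages pulmonary vessels in rats. The labels use it to model pulmonary hypertension and to pick strongly changed genes for work in pulmonary artery smooth muscle cells under hypoxia. The labels state no strain, sex, age, dose or time after treatment for either group, nor what the control rats received. Nothing in them says that each library is a different rat, so a p-value here reflects only the variation among these libraries, which may be technical.

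Glycolysis splits glucose into pyruvate in the cytosol. Pyruvate is then either reduced to lactate by lactate dehydrogenase, which restores the NAD+ that glycolysis needs, or carried into mitochondria and oxidised by the pyruvate dehydrogenase complex. Pyruvate dehydrogenase kinases switch that complex off by phosphorylation and its phosphatases switch it on again. A shift from glucose oxidation towards aerobic glycolysis, driven in part by these kinases and by hypoxia-inducible factors, has been described in the vessel cells of hypertensive lungs.

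Estimated counts summed to 41.5 to 66.6 M units in MCT libraries and 39.8 to 54.1 M in controls. Low values recurred at steps of about 3.71 units. If 1 step is 1 read pair, which was not settled, depth was 11.2 to 17.9 M read pairs in MCT and 10.7 to 14.6 M in control libraries. Lung tissue was recognisable in every library by the alveolar type 2 cell markers, whose summed level was 20882 to 27133 FPKM in MCT and 28975 to 37500 FPKM in control lungs (FPKM, read fragments corrected for transcript length and library depth). Several sets of cell composition markers differed between the groups. Of 14 tested macrophage markers 9 were higher, and their sum without Lyz2 was 764 to 1246 FPKM in MCT against 319 to 508 FPKM in control lungs, while Lyz2 itself did not pass the test. With Lyz2 the sums overlapped, at 10242 to 18841 FPKM in MCT and 12525 to 17214 FPKM in control lungs. Of 14 tested cell cycle genes 13 were higher (sums of 121 to 177 FPKM in MCT and 26.8 to 56.6 FPKM in control), and of 9 mast cell genes 8 were higher and 1 lower (280 to 1285 FPKM in MCT and 68.8 to 71.1 FPKM in control). Of 13 endothelial genes 6 were lower and 1 higher, with sums of 892 to 1067 FPKM in MCT and 1206 to 1445 FPKM in control lungs. Of 9 fibroblast and matrix genes 6 were higher, with sums of 1562 to 2895 FPKM in MCT and 864 to 1078 FPKM in control lungs. Of the 10 alveolar type 2 genes summed above 5 were lower and 1 higher. Of 11 T and NK cell genes 5 were lower and 1 higher (74.9 to 97.9 FPKM in MCT and 100.1 to 163 FPKM in control), and of 6 tested adipocyte genes 2 were lower and 1 higher (95.4 to 108 FPKM in MCT and 130 to 177 FPKM in control). Other sets had sums that overlapped. Of 10 smooth muscle genes 2 were lower and none higher (781 to 1271 FPKM in MCT and 749 to 1053 FPKM in control). Of 8 B cell genes 1 was higher and 1 lower (250 to 398 FPKM in MCT and 161 to 256 FPKM in control). The mitochondrial share of counts was 3.24% to 4.59% in MCT and 2.86% to 3.50% in control libraries, which overlap. Their part in the results below was not tested, and in whole tissue a change in the number of cells of a type and a change in RNA per cell cannot be told apart. Individual libraries also stood apart on markers. The cardiac muscle sum was 186 FPKM in MCT 1 against 31.7 to 58.5 FPKM in the other MCT libraries, the red blood cell sum was 5848 FPKM in control 1 against 1371 to 2302 FPKM in the other controls, and these libraries had the highest ciliated cell sums of their groups (1099 FPKM in MCT 1 and 1106 FPKM in control 1).

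MCT lungs had higher transcript levels of 3 enzymes of the lower and lactate-forming steps (Pgk1, Pgam1 and Ldha), of both subunits of the mitochondrial pyruvate carrier (Mpc1 and Mpc2) and of the pyruvate dehydrogenase kinase Pdk3. They had lower levels of the kinases Pdk4 and Pdk2 and of the minor aldolase Aldoc. A gene was called where edgeR's quasi-likelihood test gave a Benjamini-Hochberg adjusted p under 0.05 over all 16715 genes tested, and log2 fold changes are MCT minus control. By that rule 9 of 34 members were called (26.5%), against 20.5% of all genes tested. Higher in MCT were 6 members (17.6%, against 11.0% of all genes) and lower were 3 (8.82%, against 9.45%). Without MCT 2, the counts over all genes were 1191 higher and 975 lower in place of 1845 and 1579, and 4 members were higher and 2 lower. The FPKM ranges of the groups did not overlap for these 9 members and overlapped for the other 25, while 25.0% of all genes tested had ranges that did not overlap. The changes were small: the median log2 fold change was 0.07 over the members and 0.03 over all genes, the median absolute value was 0.31 over the members and 0.29 over all genes, and only Pdk4 both passed the threshold and changed by at least 1 on the log2 scale, as 5.48% of all genes did. Counts and medians of the members thus lay near those of all genes. Without MCT 1 and control 1 together, 6 members were higher and 4 lower, beside 1816 higher and 1713 lower over all genes. Ldha (adjusted p 0.0600) and Pdk2 (adjusted p 0.0591) were then no longer called, and Eno1, Pfkfb2 and Pfkfb3 were.

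**Figure D1:**
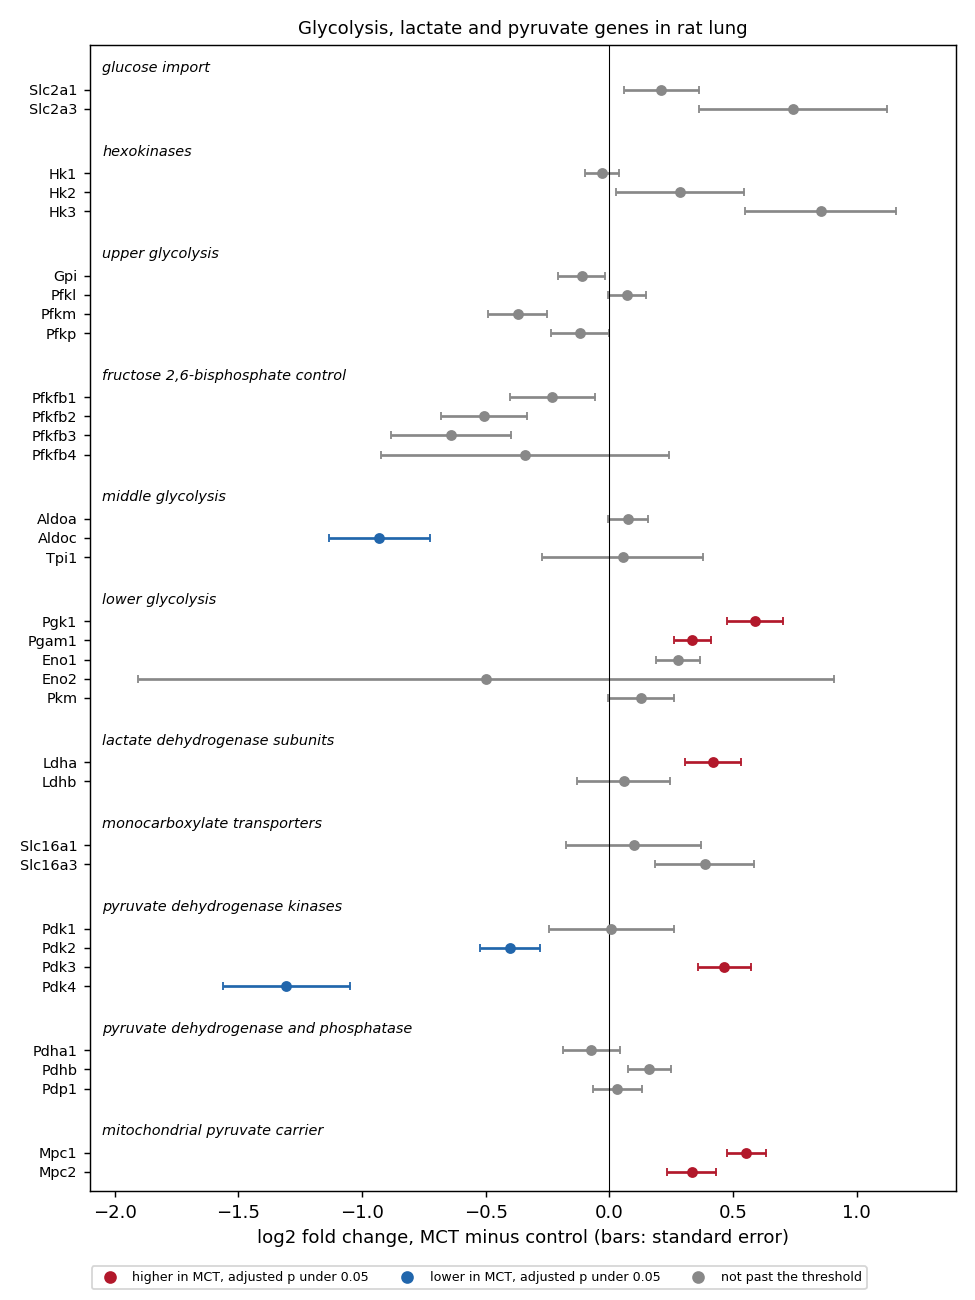
Log2 fold change of the 34 measured members, MCT minus control, ordered by role from glucose import at the top to the pyruvate carrier at the bottom. Points are edgeR estimates from 4 MCT and 4 control libraries, and bars are standard errors derived from the F statistic. The called genes run from Pdk4 at -1.31 to Pgk1 at 0.59, and the widest error bar belongs to Eno2, which was listed at 0 in libraries MCT 1 and MCT 3.

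The DNA next to the start site is printed for 6 of the 9 called members: a lower glycolytic enzyme, the lactate-forming enzyme and a carrier subunit that rose, and the 3 kinases, which moved in different directions. Each line gives the 200 bases directly before the start of the RefSeq gene on build GRCr8, 5′ to 3′ on the gene's strand. The windows are chr1:106507892-106508091 (plus strand) for Ldha, chr1:250672952-250673151 (plus) for Pgam1, chr1:54996959-54997158 (minus) for Mpc1, chr10:80483913-80484112 (minus) for Pdk2, chrX:62547372-62547571 (minus) for Pdk3 and chr4:34568330-34568529 (minus) for Pdk4. Capitals mark ACGTG and GCGTG read on either strand (CACGT and CACGC on the printed strand), the core letters of the hypoxia response element bound by hypoxia-inducible factors. The E-box CACGTG holds ACGTG on both strands and counts for it 2 times.
Ldha: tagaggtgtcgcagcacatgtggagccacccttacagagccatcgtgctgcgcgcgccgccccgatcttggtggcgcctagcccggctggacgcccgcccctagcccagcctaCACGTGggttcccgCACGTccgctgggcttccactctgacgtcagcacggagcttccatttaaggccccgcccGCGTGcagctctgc
Pgam1: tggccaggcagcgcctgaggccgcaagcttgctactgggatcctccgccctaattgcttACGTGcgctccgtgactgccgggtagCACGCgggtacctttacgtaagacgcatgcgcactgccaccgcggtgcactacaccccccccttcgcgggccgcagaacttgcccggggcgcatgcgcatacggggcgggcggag
Mpc1: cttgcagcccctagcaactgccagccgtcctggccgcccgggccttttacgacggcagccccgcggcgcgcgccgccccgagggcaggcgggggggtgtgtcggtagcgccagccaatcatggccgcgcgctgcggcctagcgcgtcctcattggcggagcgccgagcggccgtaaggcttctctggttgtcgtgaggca
Pdk2: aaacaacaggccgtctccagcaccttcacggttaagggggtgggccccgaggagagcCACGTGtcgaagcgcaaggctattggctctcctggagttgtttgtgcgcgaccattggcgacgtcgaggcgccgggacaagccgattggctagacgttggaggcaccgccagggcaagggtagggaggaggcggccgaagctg
Pdk3: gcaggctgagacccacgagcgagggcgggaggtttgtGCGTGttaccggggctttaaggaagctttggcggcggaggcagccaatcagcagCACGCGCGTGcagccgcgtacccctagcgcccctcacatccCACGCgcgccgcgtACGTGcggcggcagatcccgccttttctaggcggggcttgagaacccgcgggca
Pdk4: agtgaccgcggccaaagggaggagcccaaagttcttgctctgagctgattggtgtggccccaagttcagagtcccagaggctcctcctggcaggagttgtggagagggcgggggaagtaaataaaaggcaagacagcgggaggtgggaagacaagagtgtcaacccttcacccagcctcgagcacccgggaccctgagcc

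Ldha held ACGTG 3 times and GCGTG 1 time in this window, Pgam1 held each 1 time, and Pdk3 held ACGTG 1 time and GCGTG 4 times. The E-box stood in Ldha, which was higher in MCT, and in Pdk2, which was lower, while Pdk4 and Mpc1 held none of these letters. Of the called members not printed, Aldoc, lower in MCT, held ACGTG 1 time and GCGTG 2 times in its 200 bases. Mpc2, higher in MCT, held GCGTG 1 time. Over the longer window from 250 bases before to 50 bases after the start, ACGTG or GCGTG stood in 23 of the 32 members with a RefSeq promoter (71.9%) and in 44.6% of 27457 genes. Slc2a3, Pgk1 and Pdp1 had no entry. Taken singly, ACGTG stood in 56.2% of these members and 20.9% of all genes, and GCGTG in 46.9% of members and 32.4% of all genes. The member windows were richer in G and C, with a median of 62.7% against 52.7% over all genes. Both motifs are made mostly of these bases, and the part of base composition in the motif shares was not tested. Among members with an entry the letters were present in 4 of 5 called higher, in 2 of 3 called lower and in 16 of 23 not called, and also in Gapdh, which had a promoter entry but no row to test. These matches describe letters only, and no binding was measured.

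Neither glucose transporter was called by edgeR, DESeq2 or limma, and neither had an unadjusted edgeR p under 0.05. Slc2a1 (GLUT1), the basal glucose transporter of most cells, averaged 19.1 ± 4.15 FPKM in MCT and 16.5 ± 0.913 FPKM in control lungs (SD, n = 4 each). MCT 1 and MCT 2 were at 23.1 and 22.3 FPKM, above every control, and MCT 3 and MCT 4 at 15.1 and 16.1 FPKM, within or below the control range of 15.6 to 17.7 FPKM (log2 fold change 0.21, SE 0.15, adjusted p 0.374). Slc2a3 (GLUT3), a transporter of high glucose affinity, was at 1.11, 3.05, 2.69 and 2.28 FPKM in MCT 1 to 4 against 1.42, 0.79, 2.05 and 1.17 FPKM in control 1 to 4 (0.74, SE 0.38, adjusted p 0.206). The groups overlapped for both transporters.

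No hexokinase was called by edgeR, and DESeq2 and limma each called 1, Hk3. Among these enzymes, which trap glucose in the cell as glucose 6-phosphate, Hk1 was the most abundant per length. It was at 29.1 ± 0.799 FPKM in MCT and 29.6 ± 1.77 FPKM in control lungs, with a log2 fold change of -0.03 (SE 0.07). Hk2, the insulin- and hypoxia-responsive form, was at 3.66 ± 0.681 FPKM in MCT and 2.99 ± 1.08 FPKM in control lungs (0.29, SE 0.26, adjusted p 0.488). Hk3, the form of myeloid blood cells, was at 9.37, 11.9, 7.16 and 8.58 FPKM in MCT 1 to 4 and at 3.8, 5.09, 8.35 and 3.16 FPKM in control 1 to 4. Control 3 alone reached into the MCT range, and the log2 fold change of 0.85 (SE 0.30) had an adjusted p of 0.0813. Without control 3 it was 1.20 with an adjusted p of 0.0122, and without each other library the adjusted p was 0.0886 to 0.195. Control 3 also had the highest macrophage marker sum without Lyz2 of the controls, 508 FPKM. With Lyz2 included, control 2 was the highest control at 17214 FPKM, and control 3 was at 15369 FPKM. The neutrophil marker sum was 58.7 to 117 FPKM in MCT and 40.3 to 66.4 FPKM in control lungs, with 2 of 10 tested markers higher and Ltf at 0 in every library. The part of these cells in the Hk3 values was not tested. Hk3 made up 21.9 ± 3.73% of the summed FPKM of the 3 hexokinases in MCT and 13.2 ± 4.35% in control lungs.

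No gene of the fructose 6-phosphate steps was called by edgeR, although 1, Pfkm, had an unadjusted p under 0.05. Gpi, which converts glucose 6-phosphate to fructose 6-phosphate, was at 145 ± 15.3 FPKM in MCT and 157 ± 9.40 FPKM in control lungs (-0.11, SE 0.09). Of the 3 subunits of phosphofructokinase, the committed step of glycolysis, the liver-type Pfkl was the main one with 63.6 ± 5.00 FPKM in MCT and 60.3 ± 2.99 FPKM in control lungs (0.07, SE 0.08). The platelet-type Pfkp was at 13.8 ± 2.05 FPKM in MCT and 14.95 ± 1.07 FPKM in control lungs (-0.12, SE 0.12). The muscle-type Pfkm was at 7.93, 7.75, 8.55 and 10.8 FPKM in MCT 1 to 4 and at 12.2, 10.4, 10.4 and 12.1 FPKM in control 1 to 4. Only MCT 4 lay inside the control range. The log2 fold change of Pfkm was -0.37 (SE 0.12) with an adjusted p of 0.0557, and without MCT 4 it was -0.49 with an adjusted p of 0.0149. Pfkl accounted for 72.7% to 75.1% of phosphofructokinase FPKM in the MCT libraries and for 67.9% to 71.1% in the controls.

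The 4 bifunctional PFKFB enzymes, which make and break fructose 2,6-bisphosphate, a potent activator of phosphofructokinase, all had negative estimates, and none was called by edgeR, with 2 at an unadjusted p under 0.05. With both rows of Pfkfb4 summed its estimate was positive, 0.08. Pfkfb3, the form with the highest kinase relative to phosphatase activity, was at 4.44, 8.64, 6.67 and 10.2 FPKM in MCT 1 to 4 against 8.92, 13.6, 12.7 and 11.3 FPKM in control 1 to 4. MCT 4 alone exceeded the lowest control (log2 fold change -0.64, SE 0.24, adjusted p 0.0988). Pfkfb2, the heart form, was at 5.80 ± 1.18 FPKM in MCT and 8.23 ± 1.44 FPKM in control lungs (-0.51, SE 0.17, adjusted p 0.0702). Without control 1 its log2 fold change was -0.62 with an adjusted p of 0.0300. DESeq2 called Pfkm, Pfkfb2 and Pfkfb3 lower, with adjusted p of 0.0246, 0.0322 and 0.0365. Pfkfb1, the liver form, had a log2 fold change of -0.23 (SE 0.17) and Pfkfb4 of -0.34 (SE 0.58).

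In the middle of the pathway the minor aldolase fell and the main one did not differ beyond its spread. Aldoc, the brain-type aldolase, was at 2.52, 2.76, 2.19 and 2.72 FPKM in MCT 1 to 4 and at 6.34, 4.32, 3.54 and 5.29 FPKM in control 1 to 4. Every MCT library lay below every control. Its log2 fold change was -0.93 (SE 0.20, adjusted p 0.0126), and it was called without each single library in turn (adjusted p up to 0.0403). Aldoa, the muscle-type aldolase and the most abundant member per length, was at 369 ± 21.7 FPKM in MCT and 350.0 ± 17.8 FPKM in control lungs (0.08, SE 0.08). Tpi1, triose phosphate isomerase, varied widely within both groups, from 18.2 to 47.8 FPKM in MCT and from 19.5 to 45.03 FPKM in control lungs, with a log2 fold change of 0.06 (SE 0.33).

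The lower steps held 2 called members. Pgk1, phosphoglycerate kinase, the first step that makes ATP, was at 126, 145, 122 and 100.2 FPKM in MCT 1 to 4 against 82.5, 79.0, 88.5 and 78.2 FPKM in control 1 to 4. The lowest MCT library lay above the highest control. Pgk1 rose by 0.59 on the log2 scale (SE 0.11, adjusted p 0.00718), the largest estimate among the called members that rose, and it was called without each single library in turn (adjusted p up to 0.0244). Pgam1, phosphoglycerate mutase, was at 129, 146, 126 and 134 FPKM in MCT 1 to 4 and at 109, 106, 107 and 101 FPKM in control 1 to 4. The groups did not overlap, the log2 fold change was 0.34 (SE 0.08, adjusted p 0.0141), and the call was kept without each single library (adjusted p up to 0.0425). On Rnor_6.0, the build of the table, Pgk1 (ENSRNOG00000058249) spans 77263359 to 77279367 of chromosome X and Pgam1 (ENSRNOG00000050585) spans 261158261 to 261165808 of chromosome 1, both on the plus strand.

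Eno1, the main enolase, was just outside the threshold. It was at 133, 169, 149 and 160.3 FPKM in MCT 1 to 4 and at 130.1, 120.2, 134 and 120.0 FPKM in control 1 to 4, so that MCT 1 alone lay inside the control range. The log2 fold change was 0.28 (SE 0.09, adjusted p 0.0550), and without MCT 1 it was 0.33 with an adjusted p of 0.0261. Pkm, pyruvate kinase of muscle and most other tissues, was at 206 ± 40.03 FPKM in MCT and 188 ± 8.84 FPKM in control lungs (0.13, SE 0.13, adjusted p 0.561). Its MCT spread came from MCT 1, at 151 FPKM against 201 to 236 FPKM in the other MCT libraries. The table gives 1 value per gene, so the PKM1 and PKM2 splice forms were not separated.

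No row was named Gapdh. The table holds 2 rows with the name LOC108351137 that it describes as glyceraldehyde-3-phosphate dehydrogenase, the enzyme between Tpi1 and Pgk1. They were not members by the rule and were looked at after the members' values were known. The row on chromosome 4 (157676595 to 157679962) was at 308, 419.9, 311 and 358 FPKM in MCT 1 to 4 and at 247, 271, 270.4 and 233 FPKM in control 1 to 4, with a log2 fold change of 0.45 (SE 0.12, adjusted p 0.0262) and no overlap. This call was lost without MCT 2, MCT 4, control 1 or control 4 in turn (adjusted p up to 0.0694). The row on chromosome 5 (115649046 to 115650340) was at 94.2 ± 43.1 FPKM in MCT and 69.1 ± 17.5 FPKM in control lungs (0.45, SE 0.31, adjusted p 0.358). How reads common to both rows were divided was not given in the sources used here.

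Ldha, the subunit of lactate dehydrogenase that favours lactate formation, was at 269, 353, 264 and 289 FPKM in MCT 1 to 4. In control 1 to 4 it was at 219.85, 242, 213 and 203 FPKM. All 4 MCT libraries lay above all 4 controls. Ldha rose by 0.42 on the log2 scale (SE 0.11, adjusted p 0.0312). The call depended on which libraries were included: it was kept without MCT 1, MCT 3 or control 2, and the adjusted p was 0.0709 without MCT 2, 0.0657 without MCT 4, 0.0642 without control 1, 0.0740 without control 3 and 0.0801 without control 4. The estimate ranged from 0.32 without MCT 2 to 0.48 without control 2. Ldha (ENSRNOG00000013009) lies on chromosome 1 from 102900286 to 102909707 on the plus strand of Rnor_6.0.

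Ldhb, the subunit that favours pyruvate formation, was at 39.7, 47.6, 38.9 and 44.2 FPKM in MCT 1 to 4 and at 28.6, 34.1, 44.3 and 56.9 FPKM in control 1 to 4. The controls spanned a wider range than the MCT libraries and enclosed them, and the log2 fold change was 0.06 (SE 0.19). Ldha made up 87.3 ± 0.593% of lactate dehydrogenase FPKM in MCT and 84.2 ± 4.83% in control lungs. The controls with the lower Ldha shares were control 3 (82.8%) and control 4 (78.1%). The log2 ratio of Ldha to Ldhb differed by 0.31 between the groups (exact two-sided permutation test over 70 assignments, p = 0.400, adjusted p 0.440 over 11 ratios).

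The monocarboxylate transporters that carry lactate and pyruvate across the cell membrane overlapped between the groups, and none was called by edgeR, DESeq2 or limma or had an unadjusted p under 0.05. Slc16a3, a lactate exporter of glycolytic cells, was at 10.7, 13.1, 7.93 and 8.33 FPKM in MCT 1 to 4 and at 6.66, 7.95, 9.49 and 6.45 FPKM in control 1 to 4 (log2 fold change 0.39, SE 0.20, adjusted p 0.210). Slc16a1, the widely expressed transporter, was at 13.0 ± 3.12 FPKM in MCT and 12.0 ± 4.45 FPKM in control lungs (0.10, SE 0.27, adjusted p 0.840).

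**Figure D2:**
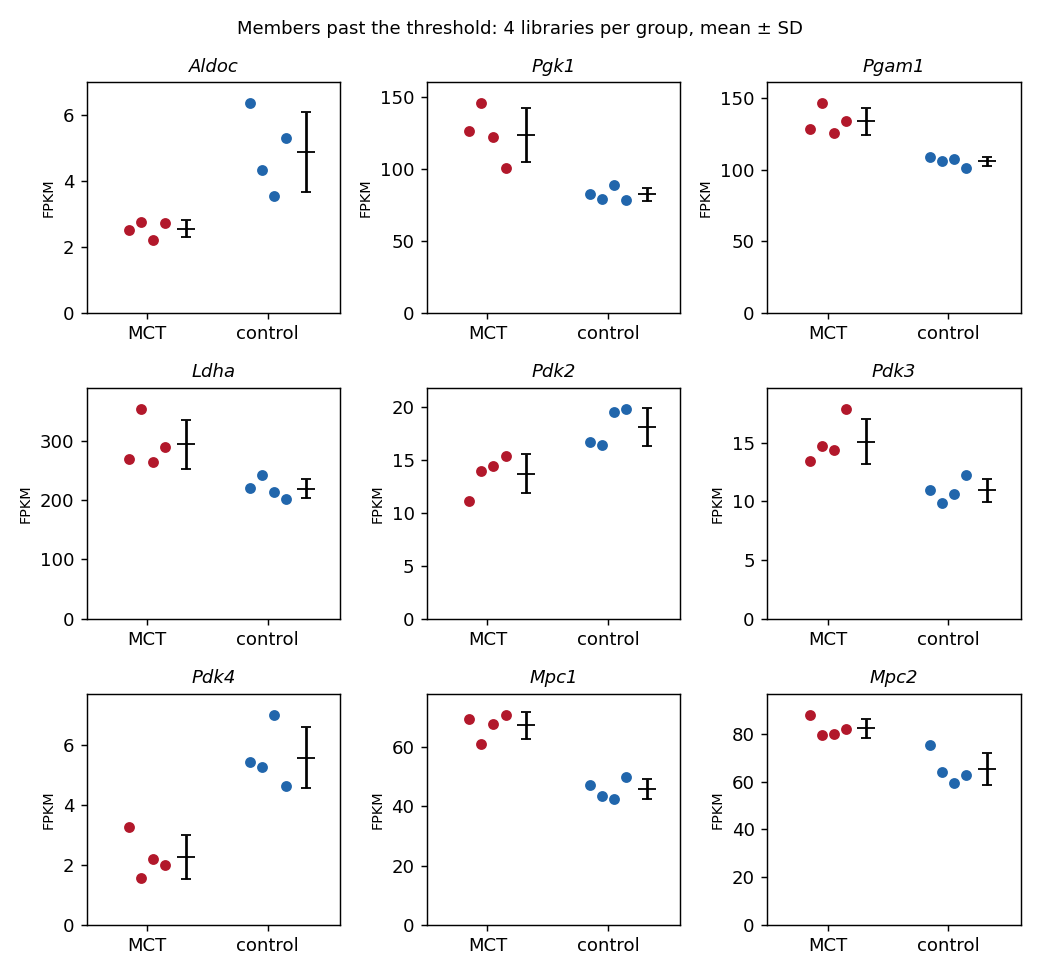
FPKM of the 9 called members in each library, with MCT libraries on the left and control libraries on the right of each panel; points are libraries, bars are means and whiskers are the SD of 4 libraries, and each panel has its own axis from 0. Points of the groups do not overlap in any panel: the 6 members from Pgk1 to Mpc2 are higher in MCT, and Pdk4, Aldoc and Pdk2 are lower.

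The pyruvate dehydrogenase kinases moved in opposite directions. Pdk4, the kinase induced by fasting and fatty acid use, was at 3.27, 1.55, 2.19 and 2.0 FPKM in MCT 1 to 4 against 5.43, 5.27, 7.0 and 4.62 FPKM in control 1 to 4. The highest MCT library was below the lowest control. Pdk4 fell by 1.31 on the log2 scale (SE 0.26, adjusted p 0.00792), the largest change among the members called, and stayed called without each single library (adjusted p up to 0.0264). Pdk3, a kinase with high activity that hypoxia induces in cultured human cells, was at 13.4, 14.7, 14.4 and 17.8 FPKM in MCT 1 to 4 and at 10.99, 9.88, 10.6 and 12.2 FPKM in control 1 to 4. All MCT libraries lay above all controls. Pdk3 rose by 0.46 on the log2 scale (SE 0.11, adjusted p 0.0151), and the adjusted p was 0.0563 without control 2 and at most 0.0415 without each other library.

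Pdk2, the most widely expressed kinase of the family, was at 11.1, 14.0, 14.4 and 15.3 FPKM in MCT 1 to 4 and at 16.6, 16.4, 19.5 and 19.75 FPKM in control 1 to 4. The groups did not overlap, and the log2 fold change was -0.40 (SE 0.12, adjusted p 0.0474). This call lay close to the threshold and was lost without any single library, MCT or control, with adjusted p from 0.0532 without control 1 to 0.111 without control 3, while the estimate stayed between -0.46 and -0.32. Pdk1, the classic kinase target of hypoxia-inducible factors, was at 5.57, 9.57, 6.89 and 8.21 FPKM in MCT 1 to 4 and at 5.37, 6.69, 6.51 and 11.6 FPKM in control 1 to 4 (0.01, SE 0.25, adjusted p 0.987). Control 4 was the highest of all libraries for Pdk1.

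The summed FPKM of the 4 kinases was 38.6 ± 4.17 in MCT and 42.1 ± 4.72 in control lungs, so the totals overlapped while the makeup differed. Pdk3 took 39.1 ± 1.95% of the sum in MCT and 26.0 ± 1.81% in control lungs. Pdk2 took 35.4 ± 1.99% in MCT and 43.0 ± 1.48% in control lungs, and Pdk4 took 6.03 ± 2.64% in MCT and 13.4 ± 2.72% in control lungs. Pdk3 was thus the leading kinase per length in 3 of 4 MCT libraries, with Pdk2 slightly ahead in MCT 3 (38.1% against 37.9%), and Pdk2 was the leading kinase in all 4 controls. The ratio of Pdk3 to Pdk2 was 1.21, 1.05, 0.997 and 1.16 in MCT 1 to 4 against 0.661, 0.602, 0.546 and 0.618 in control 1 to 4. The log2 ratio differed by 0.87 between the groups, at an exact two-sided permutation p of 0.0286, the smallest that 4 against 4 libraries allow, and the adjusted p over the 11 ratios was 0.105. The Pdk3 and Pdk2 levels behind this ratio are those tested above, so the ratio adds no separate support.

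**Figure D3:**
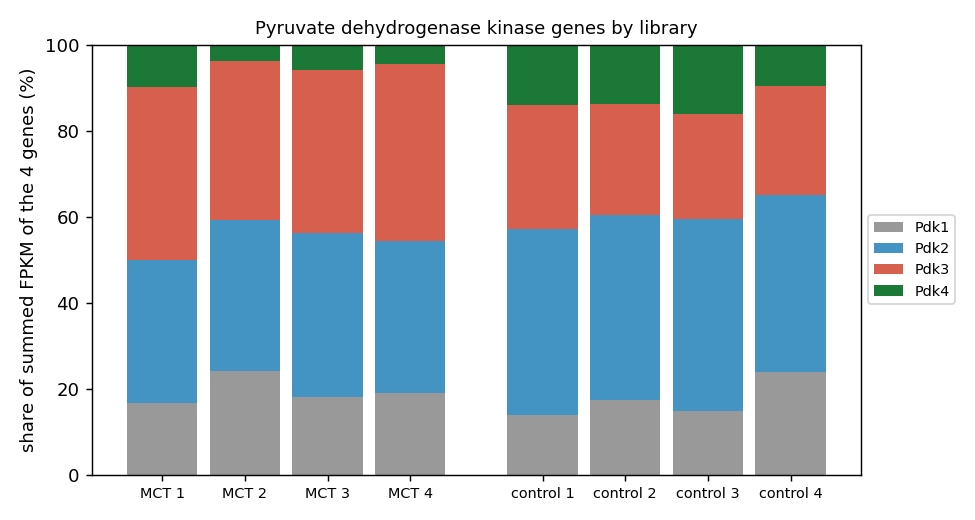
Share of each pyruvate dehydrogenase kinase in the summed FPKM of Pdk1 to Pdk4 (%), 1 stacked bar per library with MCT libraries left of control libraries. The Pdk3 share is 36.9% to 41.1% in MCT and 24.4% to 28.6% in control lungs, and the Pdk4 share is 3.90% to 9.81% in MCT and 9.60% to 16.1% in control lungs.

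Pdha1, Pdhb and Pdp1, the enzyme that these kinases act on and its phosphatase, were called by none of edgeR, DESeq2 and limma, and none had an unadjusted p under 0.05. Pdha1, the phosphorylated E1 alpha subunit of pyruvate dehydrogenase, was at 74.1 ± 10.9 FPKM in MCT and 77.7 ± 6.08 FPKM in control lungs (-0.07, SE 0.12). Pdhb, the E1 beta subunit, was at 39.5 ± 3.62 FPKM in MCT and 35.3 ± 1.44 FPKM in control lungs (0.16, SE 0.08, adjusted p 0.216). Pdp1, a phosphatase that reactivates the enzyme, was at 14.98 ± 1.04 FPKM in MCT and 14.6 ± 1.53 FPKM in control lungs (0.03, SE 0.10). RNA levels do not show the phosphorylation of the enzyme, which was not measured. None of the 8 other tested genes of the complex was called by edgeR or limma, DESeq2 called 1 lower, and 2 had an unadjusted edgeR p under 0.05 (1 in each direction). With a library left out edgeR called 1 higher without control 2 and 1 lower without MCT 3 or control 1. The most abundant of them, the E3 subunit Dld, had a log2 fold change of 0.12 (SE 0.08, adjusted p 0.347).

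Both subunits of the mitochondrial pyruvate carrier, the heterodimer through which pyruvate enters mitochondria, were higher in MCT. Mpc1 was at 69.8, 61.1, 68.0 and 70.9 FPKM in MCT 1 to 4 and at 47.3, 43.7, 42.7 and 49.9 FPKM in control 1 to 4. The lowest MCT library lay well above the highest control. Mpc1 rose by 0.55 on the log2 scale (SE 0.08, adjusted p 0.00191), the smallest adjusted p among the members, and was called without each single library (adjusted p up to 0.00852). Mpc2 was at 87.9, 79.6, 79.8 and 82.1 FPKM in MCT 1 to 4 and at 75.2, 64.0, 59.3 and 62.8 FPKM in control 1 to 4. The groups did not overlap, and control 1 was the highest control. The log2 fold change of Mpc2 was 0.33 (SE 0.10, adjusted p 0.0412). Without control 1 it was 0.40 with an adjusted p of 0.0220, and without any of the other 7 libraries the adjusted p was 0.0706 to 0.0986. The Mpc1 to Mpc2 ratio differed by 0.22 on the log2 scale (exact permutation p = 0.0857, adjusted p 0.157). On Rnor_6.0, Mpc1 (ENSRNOG00000012415) lies on the minus strand of chromosome 1 from 53026608 to 53038229 and Mpc2 (ENSRNOG00000003150) on the plus strand of chromosome 13 from 83681322 to 83700213.

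Isoenzyme ratios within a library do not depend on library scaling. Of 12 ratios, 11 could be tested and none passed after adjustment. At the smallest unadjusted exact p that the design allows, 0.0286, stood Pdk3 to Pdk2, Pfkm to Pfkl and Aldoc to Aldoa, each with an adjusted p of 0.105. Whatever its size, a ratio at this smallest p could not pass on its own after adjustment over 11 ratios. Pfkm to Pfkl was 0.140, 0.116, 0.135 and 0.159 in MCT 1 to 4 against 0.198, 0.180, 0.164 and 0.209 in control 1 to 4. Aldoc to Aldoa was 0.00634 to 0.00721 in MCT and 0.00967 to 0.0176 in control lungs. The Hk3 to Hk1 ratio differed by 0.96 on the log2 scale (exact p = 0.0571, adjusted p 0.126) and the Pdk4 to Pdk1 ratio by -1.38 (exact p = 0.0571, adjusted p 0.126).

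Several members have a second row that the table describes as a like gene, so the split of reads between them is uncertain. Eno2, the neuronal enolase, and Tpi1 are neighbours on chromosome 4, 34.3 kb apart, and rows named LOC100911625 and LOC100911515, described as like them, lie 34.3 kb apart on chromosome 9. Eno2 was at 0, 2.92, 0 and 2.78 FPKM in MCT 1 to 4 and at 2.12, 1.89, 2.19 and 1.88 FPKM in control 1 to 4. Its chromosome 9 row was at 0, 2.02, 3.15 and 0 FPKM in MCT 1 to 4 and at 2.02, 1.74, 2.20 and 1.83 FPKM in control 1 to 4. MCT 3 and MCT 4 were thus listed at 0 in one row and above every control in the other, and MCT 1 was at 0 in both. Zeros next to such values may be failed estimates, so no fold was read from Eno2.

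Pfkfb4, a PFKFB form of testis and hypoxic cells, shared the same trait with a row named LOC100911725, which was listed at 0 in MCT 2, control 2 and control 4. Summed over both rows, Pfkfb4 was at 4.41, 5.02, 5.45 and 5.11 FPKM in MCT 1 to 4 and at 6.09, 2.88, 4.79 and 2.95 FPKM in control 1 to 4, and the log2 fold change was 0.08 in place of -0.34. Tpi1 summed with its copy was at 101 ± 24.4 FPKM in MCT and 90.9 ± 13.8 FPKM in control lungs (0.16, SE 0.17). With copies summed, Pgk1 (0.59, adjusted p 0.00703) and Ldha (0.41, adjusted p 0.0321) were still called, and no further member with a copy was. Summing was chosen after the values were seen.

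**Figure D4:**
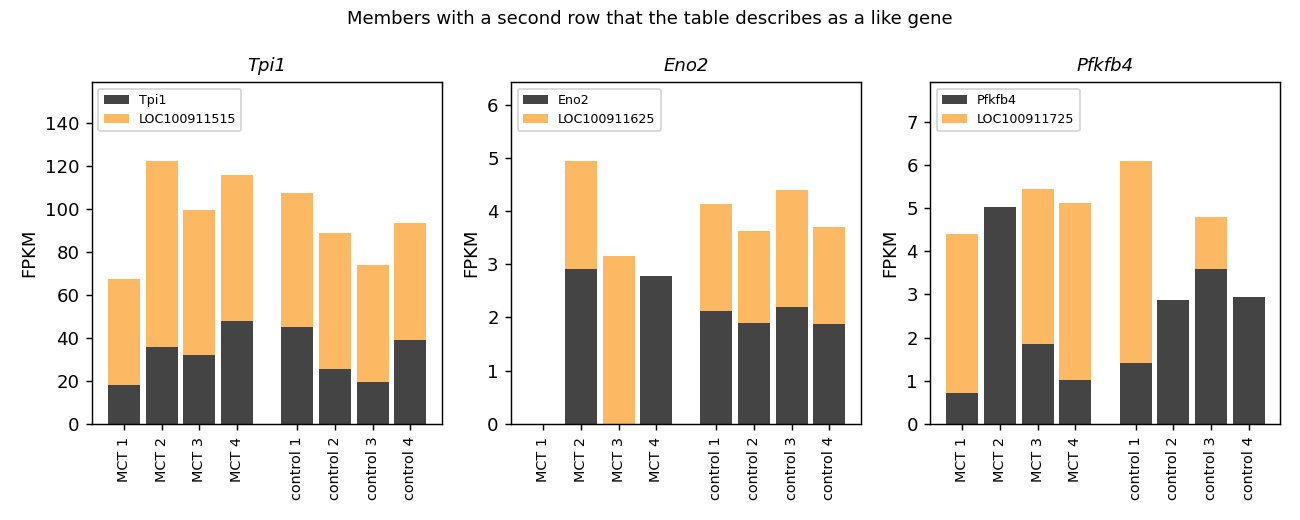
FPKM of Tpi1, Eno2 and Pfkfb4 (dark) stacked with the row described as a like gene (orange), 1 bar per library, with MCT libraries left of control libraries. Eno2 is at 0 in MCT 1 and MCT 3 and its second row at 0 in MCT 1 and MCT 4, while all controls lie between 1.74 and 2.20 FPKM in both rows.

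Group means of the members ran from 1.43 FPKM (Eno2) to 369 FPKM (Aldoa) in MCT and from 1.36 FPKM (Slc2a3) to 350.0 FPKM (Aldoa) in control lungs. Aldoa, Ldha, Pkm, Eno1, Gpi, Pgam1 and Pgk1 made up the 7 members with a mean of at least 100 FPKM over all libraries, and 11 members stayed under 10 FPKM in the means of both groups. Of the 4 members on chromosome X, Pgk1 and Pdk3 were higher, and Pfkfb1 and Pdha1 did not pass the threshold. Of the 14 members with an unadjusted p under 0.05, the 5 that were not called were Eno1, Pfkm, Hk3, Pfkfb2 and Pfkfb3.

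Around glycolysis, 152 other genes of connected pathways were listed, of which 141 were tested, 27 were higher and 17 lower in MCT. Genes beyond the called pair of smallest p per list were named after their values were seen. In the pentose phosphate pathway, which makes NADPH and ribose from glucose 6-phosphate, 4 of 7 tested genes were higher, and none was lower by edgeR, DESeq2 or limma or at an unadjusted p under 0.05. Taldo1, transaldolase, was at 180.0 ± 18.1 FPKM in MCT and 125 ± 10.1 FPKM in control lungs (log2 fold change 0.52, SE 0.10, adjusted p 0.00663), with no overlap, and was called without each single library. Pgls and Rpe each kept their calls without only 2 of the 8 libraries in turn (adjusted p up to 0.104). The list had 1 called gene without MCT 4, control 2 or control 4, 3 without control 1 and 2 without each other library.

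The hexosamine and UDP-sugar pathway, which feeds glycosylation and matrix sugars, had 4 of 10 tested genes higher and none lower, with 2 negative estimates at an unadjusted p under 0.05 and 1 gene called lower by DESeq2. The higher genes were Gnpda1 (0.64), Ugdh (0.45), Pgm3 (0.68) and Gnpnat1 (0.43). Ugdh, which makes UDP-glucuronate for glycosaminoglycans, was at 18.6 ± 1.54 FPKM in MCT and 13.6 ± 1.27 FPKM in control lungs (adjusted p 0.0123). The serine and one-carbon branch, which leaves glycolysis at 3-phosphoglycerate, had 3 of 8 higher and none lower by edgeR, DESeq2 or limma, with 1 negative estimate at an unadjusted p under 0.05. Mthfd2, a mitochondrial folate enzyme, rose by 1.05 (SE 0.22, adjusted p 0.00957), Shmt2 rose by 0.48 (adjusted p 0.0137) and Phgdh rose by 0.67 (adjusted p 0.0473). The Phgdh call was kept in 1 of 8 fits with a library left out, whereas Mthfd2, Shmt2, Gnpda1 and Ugdh were called in all 8. Pgm3 was called in 5 and Gnpnat1 in 2 of the 8, so the hexosamine list had 2 higher genes without MCT 2, MCT 3 or control 2. The serine branch had 2 without any library other than MCT 1 or MCT 3. The cell cycle genes given above moved in the same direction as this branch, and their part was not tested.

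Of 15 tested genes of the tricarboxylic acid cycle, 4 were higher and none lower by edgeR, with 1 negative estimate at an unadjusted p under 0.05 and 1 gene called lower by DESeq2. Suclg1, a succinyl-CoA ligase subunit, rose by 0.48 (SE 0.07, adjusted p 0.00237), Idh3a by 0.30, Sdhc by 0.29 and Sdhd by 0.26, while Cs, the first enzyme of the cycle, had a value of 0.05. Suclg1 was called in all 8 fits with a library left out, Idh3a in 6, Sdhc in 3 and Sdhd in 2. The list had 1 higher gene without MCT 2 or control 2 and 2 without MCT 4, control 3 or control 4. Of the 10 shuttle genes that carry cytosolic NADH equivalents, Mdh1 was higher (0.31) and Gpd1l lower (-0.25). The Mdh1 call was lost without MCT 3, MCT 4, control 1 or control 3, and the Gpd1l call without any library other than control 1. Gluconeogenesis had 1 lower of 7 tested, the phosphatase Fbp1, at 1.05 ± 0.382 FPKM in MCT and 2.11 ± 0.235 FPKM in control lungs, a call lost without any library other than MCT 4. Glycogen metabolism had 1 higher of 16, Gyg1, the primer of glycogen synthesis, at 56.5 ± 8.75 FPKM in MCT and 29.2 ± 4.56 FPKM in control lungs (0.94, SE 0.14, adjusted p 0.00260). In the polyol and fructose list of 5 tested genes Tkfc was higher (0.63) in all 8 fits and Sord lower (-0.43), a call lost without MCT 2, MCT 3, control 1 or control 2.

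Among 18 other tested isoenzymes and transporters, the fructose transporter Slc2a5 was at 1.12, 2.68, 2.02 and 1.87 FPKM in MCT 1 to 4 against 0.60, 0.32, 0.57 and 0.64 FPKM in control 1 to 4 (1.85, SE 0.32, adjusted p 0.00477). Gckr, the inhibitor of glucokinase in liver, was at 3.46, 3.87, 2.62 and 2.80 FPKM in MCT 1 to 4 against 9.36, 14.9, 13.2 and 9.53 FPKM in control 1 to 4 (-1.88, SE 0.21, adjusted p 0.000666). Neither gene overlapped between the groups. Slc2a9 (0.85) and Adpgk (0.42), an ADP-dependent glucokinase, were also higher, and Slc2a8 (-0.39) was lower.

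The regulators of glycolysis were the list with the most lower genes, 10 of 22 tested, with 2 higher and a median log2 fold change of -0.47. Epas1 (HIF-2 alpha), the hypoxia-inducible factor abundant in lung endothelium, was at 162, 152, 156 and 184 FPKM in MCT 1 to 4. In control 1 to 4 it was at 472, 598, 459 and 1011 FPKM. The groups were far apart (-1.95, SE 0.24, adjusted p 0.00104), and the endothelial marker sum was also lower in every MCT library than in every control. Hif1a, the other main oxygen-regulated subunit, had an estimate of 0.05 and did not pass the test, and Arnt, their shared partner, was lower (-0.47). Arrdc4 (-0.67, adjusted p 0.00138) and Txnip (-1.07), arrestins that restrain glucose uptake and are induced by glucose through Mlx factors, were lower, as was Mlxip (-0.91). Foxo1 (-0.96) and Ppard (-0.48), which induce Pdk4 in muscle, were lower, as were Klf15 (-0.91), Ppargc1a (-2.68) and Prkaa2 (-1.29), a catalytic subunit of the energy sensor AMPK. Levels were low for Ppargc1a (0.18 to 0.25 FPKM in MCT, 0.88 to 2.37 FPKM in control) and Prkaa2 (means of 0.965 and 2.35 FPKM). The more abundant catalytic subunit Prkaa1, at 9.64 FPKM in MCT and 9.04 FPKM in control lungs, was not called (0.09, adjusted p 0.587). Myc (0.54) and Mycn (1.77) were the higher ones. Arnt kept its call in 4, Mycn in 5 (lost without MCT 2, MCT 3 or control 2) and Prkaa2 in 2 of the 8 fits with a library left out, and the other 9 called regulators in all 8, so that 8 to 10 were lower with a library left out.

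Targets of hypoxia-inducible factors outside glycolysis did not move together. Of 15 tested, 4 were higher and 2 lower. Adm, adrenomedullin, was at 10.3 ± 2.17 FPKM in MCT and 3.64 ± 0.446 FPKM in control lungs (1.51, SE 0.19, adjusted p 0.00115). Loxl2 (1.47) and Higd1a (0.55) were higher, and Kdm3a (-0.45) and Mxi1 (-0.29) lower, with the Mxi1 call lost without any library other than MCT 1 or control 2. Vegfa (-0.30) and Bnip3 (0.18) were not called. Over all these lists 27 of the 44 called genes were called in each of the 8 fits with a library left out.

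**Figure D5:**
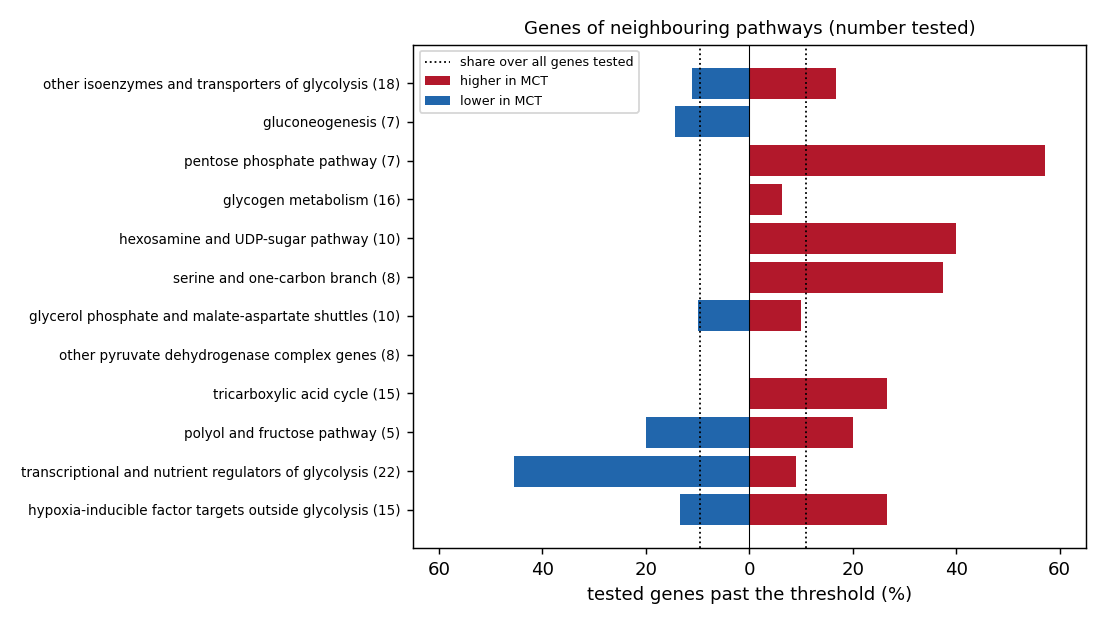
Share of tested genes past the threshold in each list of connected genes (%), with genes lower in MCT drawn to the left of 0 and genes higher in MCT to the right, and the number of genes tested beside each list. The regulators reach furthest to the left with 10 of 22 genes, the pentose phosphate pathway reaches furthest to the right with 4 of 7, and the dotted lines mark the 9.45% lower and 11.0% higher among all genes.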

How the data were processed

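RNA from rat lung was analysed in 4 MCT and 4 control libraries, grouped by their labels. The submitters' processing notes name cutadapt 1.9, HISAT2 2.0.4, StringTie 1.3.4d, edgeR and the build Rnor_6.0, with no settings. The deposited table gives, per the file headers, an estimated count and an FPKM value made by the authors for each of 32623 genes and each library; how reads shared by copies or by both strands were counted was not given in the sources used here. The deposited estimated counts are whole numbers whose low values recur at steps of about 3.71 units, and libraries held 39.8 to 66.6 M units. If a step is 1 read pair, which the sources used here do not settle, this is 10.7 to 17.9 M read pairs. Depth limits precision for low genes. No value column lacked a sample.

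The estimated counts, rounded (which changed no value), were tested with edgeR 4.0.16 in R 4.3.3: filterByExpr (minimum count 10), TMM scaling, robust quasi-likelihood F test, two-sided, Benjamini-Hochberg over 16715 genes, called under 0.05. The step was checked on simulated counts. FPKM values are given as mean ± SD. The SE given with an edgeR log2 fold change is the absolute change divided by the square root of the F statistic. It was not estimated separately. Ratios used exact permutation tests. Alternatives were limma 3.58.1 on log2(FPKM + 0.5, 0.1 or 1), DESeq2 1.42.0, other filters and scalings, counts divided by 3.71, the replicate number as a block, libraries left out and a minimum absolute log2 fold change of 1; summing copies was added after seeing the data. Members with several rows of a symbol took the row of highest mean FPKM. All members were named, and in each other list the called pair of smallest p or, with none called, the tested gene of highest FPKM. Some genes counted in these lists are not reported by name here. The members, lists and left-out pair were chosen with earlier results of these data known. No 2 libraries of a group were duplicates (chi-square per gene at least 15.9).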

Additional observations from a re-analysis of the deposited data

Results flagged for a closer look

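In groups of 4 libraries, 3 of 68 sets of member values had a library set far from the others by Dixon's gap-to-range ratio, where chance gives about 3.4. Gpi was at 143 FPKM in control 4 against 159 to 165 FPKM in the other controls (ratio 0.835). Pgam1 was at 101 FPKM in control 4 against 106 to 109 FPKM in the other controls (ratio 0.916); without control 4 it was still called. Pdhb was at 37.3 FPKM in control 1 against 34.0 to 35.3 FPKM in the other controls (ratio 0.873).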

How the results depend on the processing

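Mpc1, Pgk1, Pgam1, Pdk4 and Aldoc kept their calls and directions in all 20 alternatives that kept the threshold on adjusted p alone, and no called member changed direction in any of them. Pdk3 lost its call without control 2 only. The calls of Ldha, Mpc2 and Pdk2 rest on the full set of libraries, as given with their values; Mpc2 was also lost with no filter (adjusted p 0.0576), and Pdk2 with no filter (0.0716) and upper-quartile scaling (0.0533). DESeq2 called 6 members lower in place of 3 and 8 higher in place of 6. Over all genes it also called more, 2181 lower in place of 1579 and 2266 higher in place of 1845. Limma with each pseudocount called Hk3 (adjusted p 0.0478 to 0.0495), and so did DESeq2 (0.0234). Eno1 was called with the FPKM filter, upper-quartile scaling, DESeq2 and divided counts. With a further minimum of 1 for the absolute log2 fold change, 618 genes were higher and 298 lower; 0 members were higher and 1, Pdk4, lower, so Mpc1, Pgk1, Pgam1 and Aldoc did not pass, and of the other lists 6 genes were higher and 6 lower. With 1 library left out, all genes gave 1191 to 1946 higher and 975 to 1730 lower, both lowest without MCT 2, members 4 to 6 higher and 2 to 3 lower, and the other lists 18 to 27 higher and 11 to 15 lower. The estimates near 0 that changed sign were of genes never called: Pfkfb4 (0.082 with copies summed), Tpi1 (-0.17 to 0.26 with a library left out), Ldhb (-0.082 to 0.24, and -0.059 without MCT 1 and control 1), Slc16a1 (-0.042 to 0.39), Pdk1 (-0.13 to 0.27, -0.012 without MCT 1 and control 1, -0.0027 with DESeq2 size factors and -0.0025 with DESeq2), Pdha1 (-0.17 to 0.0097) and Pdp1 (-0.017 to 0.099, and -0.033 without MCT 1 and control 1). The cause was not tested. No pairing of libraries by replicate number was evident (same-number correlations of deviations 0.110, 0.0165, -0.0165 and -0.0848, and MCT 1 alone correlated best with the control of its number). Correlations over 4 libraries per group cannot exclude a pairing, and the labels state none. With the number as a replicate block, 1436 genes were higher and 1271 lower, and 5 members higher and 4 lower; Mpc2 (adjusted p 0.0512) and Pdk2 (0.0536) were not called, and Pfkfb2 (0.0152) and Pfkfb3 (0.0314) were. Ratios with a library left out were taken as values without a test, all within 1 SD (of the more variable group) of the values given. A sign-flip test on 4 pairs gives no p under 0.125.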
